A study of Homo sapiens with 6 samples.

Results

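The 10 genes described here encode nuclear regulators of mitochondrial DNA and RNA: TFAM, POLRMT, TFB1M, TFB2M, POLG, TWNK, LRPPRC, SLIRP, NRF1 and PPARGC1B. They were chosen by name with earlier results of these data known, and all 10 were found by Ensembl identifier and symbol among the 57820 genes of the count files. RNA sequencing of total RNA had been done in C4-2B-ENZR cells, a line of human prostate cancer that resists enzalutamide, an androgen receptor inhibitor. One group of 3 libraries came from cells given a negative-control siRNA and the other group of 3 from cells given an siRNA against RUVBL1, an AAA+ ATPase of chromatin-remodelling and chaperone complexes. All libraries came from this 1 line under siRNA transfection, and the labels name no further agent, dose or time, so the cells' state after another length of knockdown was not measured.

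The mitochondrial genome is a small circular DNA that encodes subunits of the respiratory chain, the RNA of the mitochondrial ribosome and transfer RNA. Every protein that copies, packages, transcribes or matures it is made from nuclear genes. TFAM coats and bends the DNA and activates its promoters, POLRMT transcribes it with TFB2M, POLG copies it behind the helicase TWNK, and LRPPRC with SLIRP stabilises the mRNAs made from it. The nuclear transcription factor NRF1 and the coactivator PPARGC1B (PGC-1beta) act upstream, on the nuclear genes of this system.

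The promoters are shown because NRF1 is one of the 10 genes and is known to act on promoters of this system, and because LRPPRC and SLIRP, whose proteins work together, moved apart. RefSeq promoter windows (GRCh38.p14, from 250 bases before to 50 bases after the transcript start) were matched for 8 of the 10 genes, all except TWNK and NRF1. Each was searched on both strands for a core of the NRF1 motif, GCGCANGCG, and for the motif CCGGAAG of GABP, an ETS factor also called NRF2 in this field. The NRF1 motif was found in 4 of the 8 windows, those of TFAM, POLRMT, TFB1M and TFB2M, and in 7.52% of all 35116 RefSeq windows. A form of it with 1 more C at the end had been searched first, and TFB2M had no match to that longer form. The shorter form was used after that search, so the 4 of 8 is not independent of these promoters. The 7.52% is the share of the shorter form alone, and enrichment was not tested. The GABP motif was found in 3 of the 8, those of POLRMT, TFB1M and SLIRP, and in 10.3% of all windows. It was searched in this exact form alone. A window without it, such as that of TFB2M, may still hold letters close to it, which were not counted. The 200 bases before the start follow, 5′ to 3′ on the strand of the gene, with both motifs in capitals. POLG and PPARGC1B, whose windows held neither motif, are left out.
TFAM, chr10:58385210-58385409, plus strand: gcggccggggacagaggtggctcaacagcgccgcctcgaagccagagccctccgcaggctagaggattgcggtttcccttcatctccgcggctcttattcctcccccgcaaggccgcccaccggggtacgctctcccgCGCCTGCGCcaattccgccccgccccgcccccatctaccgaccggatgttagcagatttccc
POLRMT, chr19:633538-633737, minus strand: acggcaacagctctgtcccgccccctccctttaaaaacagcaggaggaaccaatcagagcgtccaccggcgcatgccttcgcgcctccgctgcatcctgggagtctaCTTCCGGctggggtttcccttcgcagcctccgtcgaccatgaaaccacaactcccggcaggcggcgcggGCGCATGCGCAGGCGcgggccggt
TFB1M, chr6:155314485-155314684, minus strand: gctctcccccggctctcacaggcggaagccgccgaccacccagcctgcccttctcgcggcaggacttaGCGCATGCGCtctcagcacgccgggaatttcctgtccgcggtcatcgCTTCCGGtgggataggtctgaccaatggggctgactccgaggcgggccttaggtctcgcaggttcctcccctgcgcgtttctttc
TFB2M, chr1:246566262-246566461, minus strand: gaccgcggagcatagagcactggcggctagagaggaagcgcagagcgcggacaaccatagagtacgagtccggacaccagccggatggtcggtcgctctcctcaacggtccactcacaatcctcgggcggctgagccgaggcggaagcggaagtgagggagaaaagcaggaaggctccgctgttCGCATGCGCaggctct
LRPPRC, chr2:43995990-43996189, minus strand: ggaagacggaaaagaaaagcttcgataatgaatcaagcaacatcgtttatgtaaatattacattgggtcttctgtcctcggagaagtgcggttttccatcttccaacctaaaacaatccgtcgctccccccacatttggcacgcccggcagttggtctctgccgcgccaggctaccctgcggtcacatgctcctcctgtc
SLIRP, chr14:77707903-77708102, plus strand: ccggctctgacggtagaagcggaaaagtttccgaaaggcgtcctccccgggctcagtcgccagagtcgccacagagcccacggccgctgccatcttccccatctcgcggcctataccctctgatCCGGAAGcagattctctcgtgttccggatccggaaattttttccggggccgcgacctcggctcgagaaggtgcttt
The NRF1 motif began 62 bases before the start in TFAM and 16 bases before it in TFB2M. In TFB1M 2 overlapping matches, 1 on each strand, made a run of 10 capitals that began 132 bases before the start. In POLRMT 3 overlapping matches made a run of 15 capitals that began 24 bases before the start. The GABP motif began 93, 85 and 76 bases before the start in POLRMT, TFB1M and SLIRP. A match is a description of these letters and not a measured binding site.

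The knockdown, the depth and the libraries were checked first. RUVBL1 mRNA, the siRNA target, was at 4681, 4654 and 4758 normalized counts (counts scaled by TMM, the trimmed mean of M-values, to a common library size) in control replicates 1 to 3 and at 2725, 2618 and 2709.66 under its siRNA, 57.1% ± 1.23 (SD, n = 3) of the control mean. Library totals ran from 18985542 to 36054489 estimated counts, and the least counted of the 10 genes had 173 counts in its lowest library. The replicate 1 libraries stood apart from the rest: among 14127 genes that reached 20 counts in all 4 other libraries, 542 were at 0 in both of them, but 0 of the 10 genes and 0 of the other genes listed here were among them. Luminal prostate markers were present, with 10 of 10 tested, 1 that rose and 6 that fell (beside 19.1% and 23.1% of all tested genes), and a summed level of 121594 to 123836 normalized counts in control and 104044 to 107156 in RUVBL1 siRNA libraries. Of 12 markers of immune, endothelial, stromal and basal cells that were found, 6 were at 0 in every library and only 4 were tested. Of these 4, 2 fell and 0 rose, beside 23.1% lower and 19.1% higher of all tested genes. The summed level of the 12 was 814 to 927 in control and 543 to 593 in RUVBL1 siRNA libraries. Their part in the results below was not tested.

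Across the transcriptome, 42.2% of 16006 tested genes passed an edgeR adjusted p of 0.05, 19.1% higher and 23.1% lower after RUVBL1 siRNA. Against this background, 1 of the 10 genes rose (SLIRP), 3 fell (POLG, POLRMT and LRPPRC) and 6 were not called. Their median log2 fold change was -0.09, beside 0.01 over all tested genes. The groups did not overlap for 7 of the 10 genes, 5 lower and 2 higher, where 52.6% of all tested genes had groups that did not overlap (27.4% lower and 25.3% higher). These shares are near the background, so the values of single genes carry the results. Where each library was instead scaled by its total count (total-count scaling), fold changes shifted by a median of 0.0990 on the log2 scale. Then 3 of the 10 rose (TFAM, SLIRP and NRF1) and POLG, POLRMT and LRPPRC fell, beside 45.4% of all genes called, 31.1% higher and 14.4% lower. In bulk RNA, fewer cells of a type and less RNA per cell cannot be told apart. The labels do not say that replicates were separate cultures, so each p reflects the spread among these libraries alone, and that spread could be technical.

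**Figure D1:**
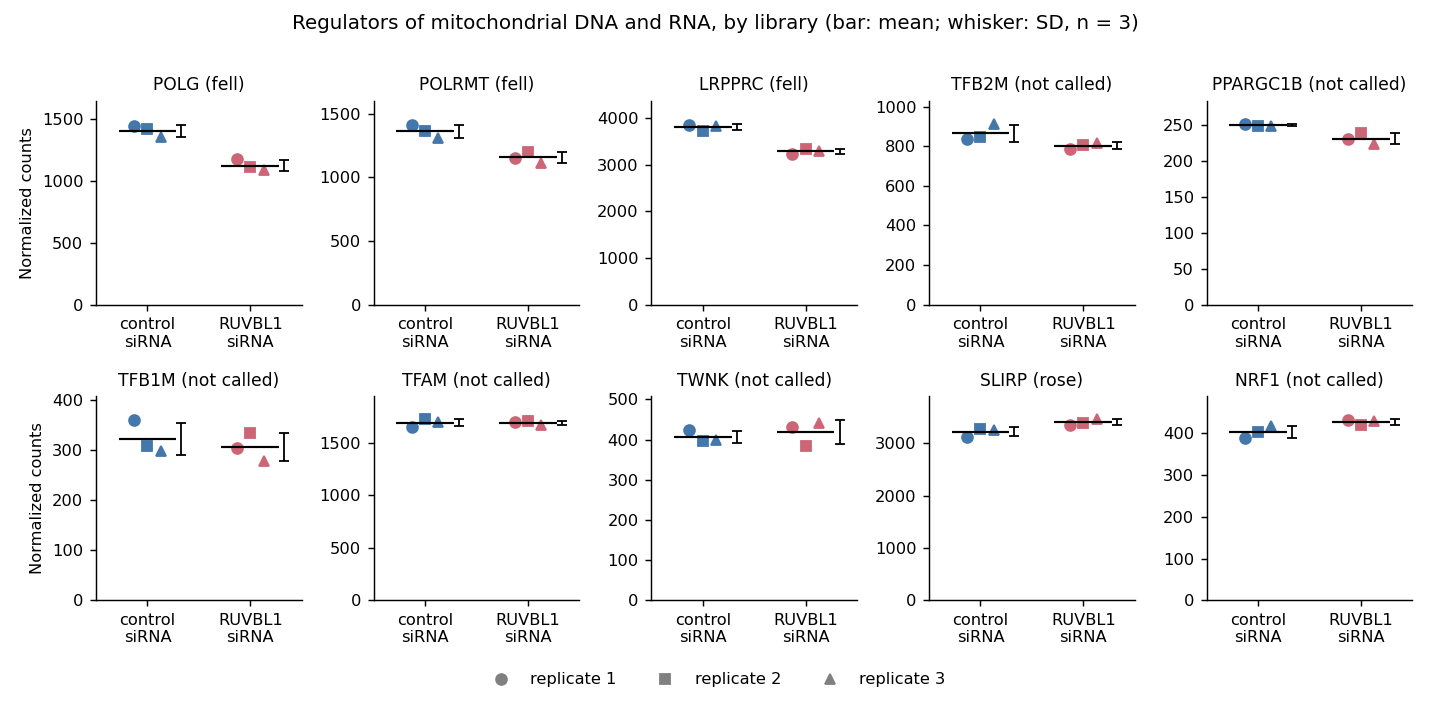
Normalized counts (y axis, from 0) of each of the 10 genes in the 3 control siRNA libraries (blue) and the 3 RUVBL1 siRNA libraries (red), with the mean as a bar and the SD as a whisker beside it. POLG, POLRMT and LRPPRC sat lower in all 3 RUVBL1 siRNA libraries, whereas the TFAM libraries of the groups were interleaved between 1652 and 1725.

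Among the replication enzymes of mitochondrial DNA, POLG fell, and TWNK and POLG2 were not called. POLG, the catalytic subunit of the mitochondrial DNA polymerase (ENSG00000140521.7), was at 1445, 1421 and 1355 normalized counts in control libraries and at 1176, 1109.9 and 1086 after RUVBL1 siRNA. Every RUVBL1 siRNA library was below every control library, at 79.9% ± 3.32 (SD, n = 3) of the control mean. This was the largest fall among the 10 genes, -0.32 on the log2 scale (SE 0.0402, 95% interval -0.41 to -0.24, edgeR adjusted p = 3.47e-05). TWNK, the helicase that unwinds the DNA ahead of the polymerase (ENSG00000107815.3), was at 424, 396 and 398 in control libraries and at 431, 385 and 442 after RUVBL1 siRNA. Its groups overlapped, and its log2 fold change of 0.05 had an interval of -0.11 to 0.20 (edgeR adjusted p = 0.675). POLG2, which encodes the accessory subunit of the polymerase, had a log2 fold change of -0.08 with an interval of -0.27 to 0.10 (edgeR adjusted p = 0.503). The intervals of POLG and POLG2 overlapped, and the difference between these genes was not tested.

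A ratio of 2 genes inside a library does not depend on how libraries are scaled to each other. POLG had 3.41, 3.59 and 3.40 counts per TWNK count with control siRNA and 2.73, 2.89 and 2.46 with RUVBL1 siRNA. The groups did not overlap, with a difference of -0.37 in the log2 ratio (1.29-fold lower, exact two-sided permutation p = 0.1, n = 3 per group). That p is the smallest that the 20 assignments of 3 against 3 libraries allow, here and for the other ratios.

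In the transcription machinery, POLRMT fell and TFAM was not called, and the difference between these genes was not tested. POLRMT, the single-subunit RNA polymerase of mitochondria (ENSG00000099821.9), was at 1413, 1367 and 1311 normalized counts in control libraries and at 1155, 1202 and 1115 after RUVBL1 siRNA. The groups did not overlap, and the RUVBL1 siRNA libraries were at 84.9% ± 3.21 (SD, n = 3) of the control mean, a log2 fold change of -0.24 (SE 0.0405, edgeR adjusted p = 0.000456). TFAM, which packages the DNA and activates its promoters (ENSG00000108064.6), was at 1652, 1725 and 1698 in control libraries and at 1697, 1704 and 1669.91 after RUVBL1 siRNA. These values were interleaved, and the log2 fold change was -0.0017 with an interval of -0.07 to 0.07 (edgeR adjusted p = 0.981). Under total-count scaling, TFAM had a log2 fold change of 0.10 and passed (edgeR adjusted p = 0.0232), so its direction depended on the scaling.

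TFB1M and TFB2M are related to bacterial rRNA methyltransferases. TFB1M methylates the small rRNA of the mitochondrial ribosome, while TFB2M melts the promoter as a partner of POLRMT. TFB2M (ENSG00000162851.6) was at 836, 844 and 913 normalized counts in control libraries and at 785, 808 and 817 after RUVBL1 siRNA. The groups did not overlap, but its log2 fold change of -0.11 was not called (SE 0.0478, edgeR adjusted p = 0.0992). TFB1M (ENSG00000029639.6) was at 359, 309 and 299 in control libraries and at 304, 334 and 278 after RUVBL1 siRNA, and the groups overlapped. Its log2 fold change was -0.08 with a wide interval of -0.29 to 0.13 (edgeR adjusted p = 0.585), and its sign differed between replicate numbers, at -0.24, 0.11 and -0.10 within replicates 1, 2 and 3. TFB1M had 0.430, 0.366 and 0.327 counts per TFB2M count in control libraries and 0.388, 0.413 and 0.340 after RUVBL1 siRNA (exact two-sided permutation p = 0.9, n = 3 per group). The difference in the log2 ratio, 0.03, was smaller than the SD of either group (0.198 and 0.143).

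Of the 4 genes with the NRF1 motif in the promoter window, POLRMT fell, and TFAM, TFB1M and TFB2M were not called. Of the other 4 matched genes, POLG and LRPPRC fell, SLIRP rose, and PPARGC1B was not called. Nothing about NRF1 activity follows from this split, since binding was not measured.

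LRPPRC and SLIRP form a complex that holds mitochondrial mRNAs in a stable, translatable state, and their transcripts went in opposite directions. LRPPRC (ENSG00000138095.14) was at 3850.15, 3731 and 3835 normalized counts in control libraries and at 3235, 3342 and 3297 after RUVBL1 siRNA. It fell, reaching 86.5% ± 1.40 (SD, n = 3) of the mean control level, with no overlap between groups (log2 fold change -0.21, SE 0.0254, edgeR adjusted p = 2.97e-05). SLIRP (ENSG00000119705.5) was at 3120.4, 3270.1 and 3259 in control libraries and at 3350.3, 3388 and 3458 after RUVBL1 siRNA, all above the controls. The rise was small, 0.08 on the log2 scale (SE 0.0279, edgeR adjusted p = 0.0373), and its call was lost without control replicate 1 (0.158), 2 (0.0570) or 3 (0.0798), without RUVBL1 siRNA replicate 2 (0.0835) or 3 (0.134), and with no low-count filter (0.135).

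Within libraries, LRPPRC had 1.23, 1.14 and 1.18 counts per SLIRP count with control siRNA and 0.966, 0.986 and 0.954 with RUVBL1 siRNA. All control libraries held more LRPPRC than SLIRP counts and all RUVBL1 siRNA libraries held fewer, without allowance for transcript length. The log2 ratio differed by -0.29, with SDs of 0.0569 and 0.0246 (exact two-sided permutation p = 0.1, n = 3 per group), and by -0.26 in replicates 2 and 3 alone.

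**Figure D2:**
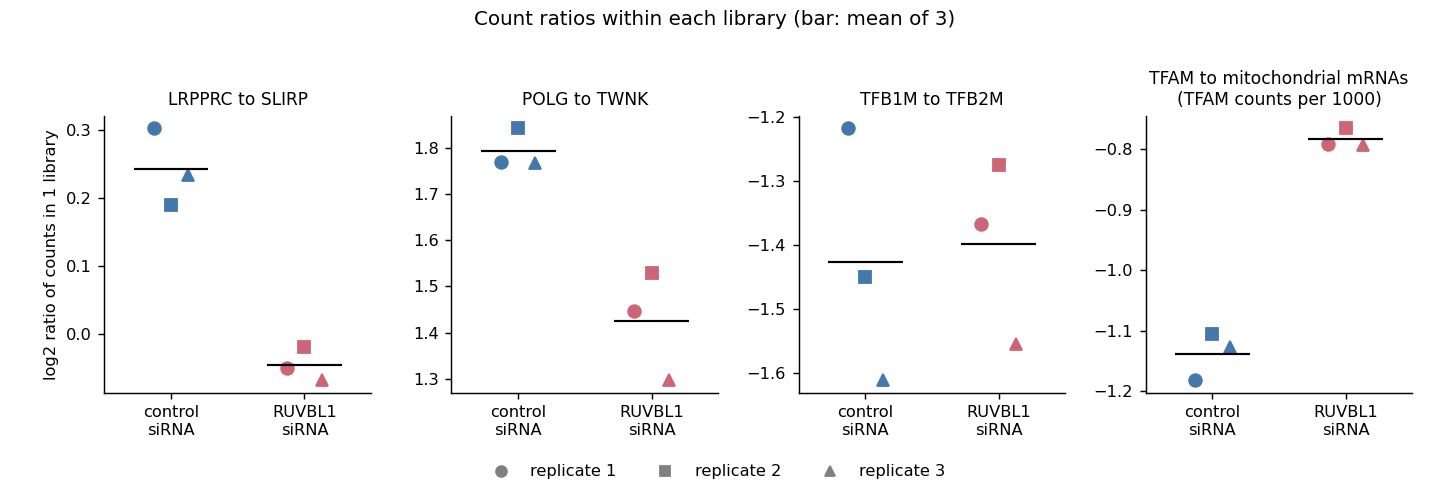
Log2 ratios of the counts of 2 genes in the same library (y axis), for control siRNA (blue) and RUVBL1 siRNA (red) libraries, with the mean as a bar; the last panel sets TFAM against the summed counts of the 13 mitochondrially encoded mRNAs, per 1000 of them. The y axes do not start at 0, and the groups separate for LRPPRC to SLIRP, POLG to TWNK and TFAM to mitochondrial mRNAs but overlap for TFB1M to TFB2M.

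The upstream regulators among the 10 were not called. NRF1, nuclear respiratory factor 1 (ENSG00000106459.10), was at 388, 403 and 418 normalized counts in control libraries and at 431, 419 and 430.2 after RUVBL1 siRNA. Its groups did not overlap, though the highest control library, at 418, and the lowest RUVBL1 siRNA library, at 419, were next to each other. The log2 fold change was 0.08 with an interval of -0.05 to 0.22 (edgeR adjusted p = 0.317), and under total-count scaling it was 0.18 and passed (edgeR adjusted p = 0.0291). PPARGC1B, which docks on NRF1 and on oestrogen-related receptors (ENSG00000155846.12), was at 252, 249 and 249 in control libraries and at 231, 238 and 224 after RUVBL1 siRNA. The groups did not overlap, and the log2 fold change of -0.11 had an interval of -0.30 to 0.07 (edgeR adjusted p = 0.315).

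**Figure D3:**
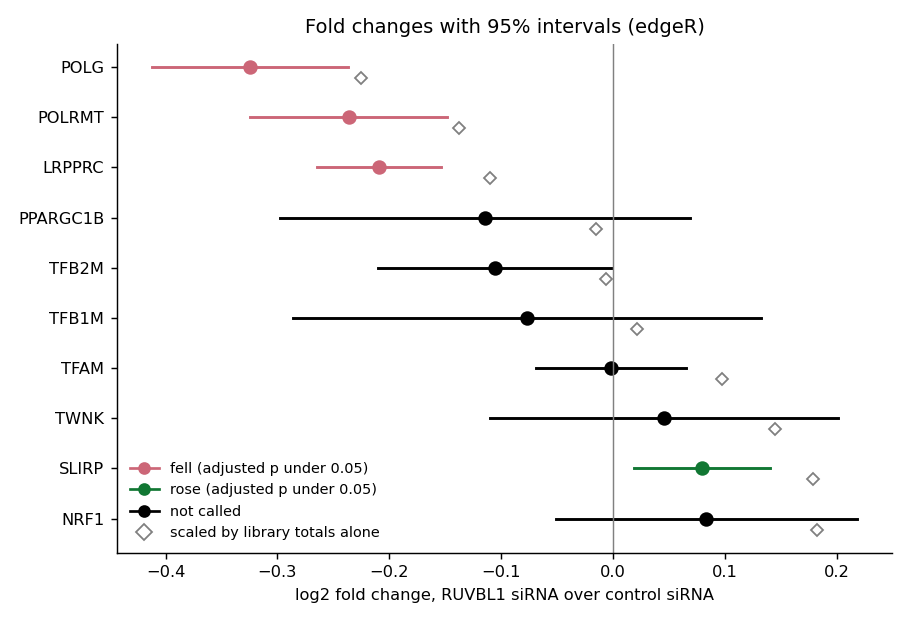
Log2 fold changes of the 10 genes (x axis, RUVBL1 siRNA over control siRNA) from edgeR with TMM scaling, as filled points with 95% intervals, and under total-count scaling, as open diamonds. POLG, POLRMT and LRPPRC lie below 0 with either scaling, whereas TFAM and TFB1M change sign with the scaling.

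Levels were compared between genes per length of transcript, as normalized counts per kilobase of the longest APPRIS principal transcript of GENCODE 29. The order in control cells ran from SLIRP, 7884 ± 204 (SD, n = 3 for each gene), through LRPPRC, 601 ± 10.2, TFB2M, 468 ± 22.8, and POLRMT, 356 ± 13.4, to POLG, 313 ± 10.4, and TFAM, 313 ± 6.80. Below them were TFB1M, 226 ± 22.8, NRF1, 114 ± 4.21, TWNK, 112 ± 4.26, and PPARGC1B, 23.7 ± 0.153. POLG and TFAM did not differ beyond their spread, and neither did NRF1 and TWNK. After RUVBL1 siRNA TFAM, at 312 ± 3.34, stood above POLG, at 249.836 ± 10.4 per kilobase, and within the spread of POLRMT, at 302 ± 11.4. The order rests on the transcript lengths chosen, which run from 408 to 10568 bases, and on the isoforms that these cells use, which were not measured.

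The products of the system, the mitochondrially encoded mRNAs, were lower in every case, as all 13 fell, beside 23.1% of all tested genes. All 13 are transcribed from the same small genome, so they are not 13 independent results. Their log2 fold changes ran from -0.47 to -0.22. Their share of all counts was 13.8%, 13.5% and 13.5% in control libraries and 11.6%, 11.3% and 11.3% after RUVBL1 siRNA. TFAM was higher relative to them, at 0.441, 0.465 and 0.458 TFAM counts per 1000 mitochondrial mRNA counts in control libraries and 0.578, 0.588 and 0.577 after RUVBL1 siRNA. The groups did not overlap (difference in log2 ratio 0.35, 1.28-fold higher, exact two-sided permutation p = 0.1, n = 3 per group). The summed normalized counts of the 13 mRNAs had a log2 fold change of -0.36. TFAM itself was at -0.0017, and the median over all tested genes was 0.01. A gene that did not change would thus show about this difference in ratio, so it is not particular to TFAM. POLG, POLRMT and LRPPRC, the 3 of the 10 genes that fell, had log2 fold changes from -0.32 to -0.21. The median was -0.09 over all 10 genes and -0.38 over the 13 mRNAs, and a link between them was not tested.

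Other genes of the system were taken from 4 lists of 67 genes, of which 66 were tested. Of these 13 rose, 26 fell and 27 were not called, beside 19.1% higher and 23.1% lower over all tested genes. The list of mitochondrial transcription, RNA processing and decay had the most falls. Of its 26 genes 15 fell (57.7%, beside 23.1% of all tested genes) and 2 rose, with a median log2 fold change of -0.11. The genes of this list had 322 to 6482 counts per library. Shares over all tested genes, here and elsewhere, were not matched for count level, on which the power to call a gene depends. Under total-count scaling, 10 fell (38.5%, beside 14.4% of all genes) and 4 rose. MTERF4, which works in assembly of the mitochondrial ribosome, fell from 1843 ± 36.6 to 1276 ± 43.4 normalized counts (n = 3 each, SD; log2 -0.53, edgeR adjusted p = 1.28e-07). FASTKD2, an RNA-binding protein of mitochondrial RNA granules, fell from 1089 ± 16.1 to 827 ± 13.4 (log2 -0.40). PNPT1, the exoribonuclease of the mitochondrial RNA degradosome, fell by 0.27 on the log2 scale, and TRMT10C, a subunit of mitochondrial RNase P, fell by 0.23. TEFM, the elongation factor of POLRMT, was at 804 ± 17.5 and 749 ± 12.4 and was not called (log2 -0.10, edgeR adjusted p = 0.0860).

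Among 13 genes of mitochondrial DNA replication and the nucleoid, the DNA-protein body of the mitochondrial genome, 4 fell and 2 rose, beside 23.1% and 19.1% of all tested genes, with a median log2 fold change of -0.02. Under total-count scaling, 3 fell and 5 rose, beside 14.4% and 31.1% of all genes. These counts are near the background. ATAD3A, a membrane ATPase linked to nucleoids, fell from 2931 ± 133 to 2077 ± 79.5 normalized counts (n = 3 each, SD; log2 -0.50, edgeR adjusted p = 7.10e-07), and its near-identical neighbour ATAD3B fell by 0.21 on the log2 scale. Their reads may be shared, so both values are uncertain. DNA2, a nuclease and helicase that also serves in the nucleus, fell by 0.27 on the log2 scale. LONP1, the matrix protease known to degrade TFAM protein, rose from 5153 ± 95.9 to 5839 ± 105 (log2 0.18, edgeR adjusted p = 2.07e-05). SSBP1, which coats single-stranded mitochondrial DNA, was at 4923 ± 8.41 and 4995 ± 57.2 and was not called (log2 0.02, edgeR adjusted p = 0.423), while under total-count scaling it passed at 0.12 (edgeR adjusted p = 0.000393).

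Of 13 genes of nucleotide supply for mitochondrial DNA, 4 rose and 2 fell, beside 19.1% and 23.1% of all tested genes, with a median log2 fold change of 0.02. Under total-count scaling 7 rose and 1 fell, beside 31.1% and 14.4% of all genes. With the replicate number as a block, 4 rose and 3 fell. SLC25A36, a pyrimidine nucleotide carrier, rose from 1609 ± 22.6 to 2077 ± 67.7 normalized counts (n = 3 each, SD; log2 0.37, edgeR adjusted p = 2.23e-06). TK2, the mitochondrial thymidine kinase, rose by 0.23 on the log2 scale and MPV17, an inner-membrane protein needed for DNA maintenance, by 0.16.

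Of 14 tested genes on the list of NRF1 and PGC-1 partners, 5 rose and 5 fell (35.7% each way, beside 19.1% higher and 23.1% lower over all tested genes), with a median log2 fold change of 0.10. Under total-count scaling, 6 rose and 2 fell, beside 31.1% and 14.4% of all genes. PPRC1, the coactivator PRC that binds NRF1, fell from 922 ± 7.25 to 696 ± 32.2 normalized counts (n = 3 each, SD; log2 -0.40, edgeR adjusted p = 2.04e-05). HCFC1, a chromatin cofactor of GABP, fell by 0.26 on the log2 scale, and ESRRA, the oestrogen-related receptor alpha gene, by 0.15, a call lost under total-count scaling (edgeR adjusted p = 0.213). YY1, a zinc finger factor of many promoters, rose by 0.22 on the log2 scale. PPARGC1A, which encodes PGC-1alpha, had only 14 to 35 counts per library, or 14.0 ± 1.24 and 32.6 ± 3.75 normalized counts, and it rose by 1.22 on the log2 scale (SE 0.296, edgeR adjusted p = 0.00533). PPARGC1B, its relative among the 10 genes, had 250.153 ± 1.61 and 231 ± 7.33 normalized counts without allowance for length. GABPA, the DNA-binding subunit of GABP, had a log2 fold change of 0.11 that was not called (edgeR adjusted p = 0.0560), and it passed with DESeq2 size factors (0.0442), under total-count scaling (0.00175) and with at least 50 counts in 3 libraries (0.0338).

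**Figure D4:**
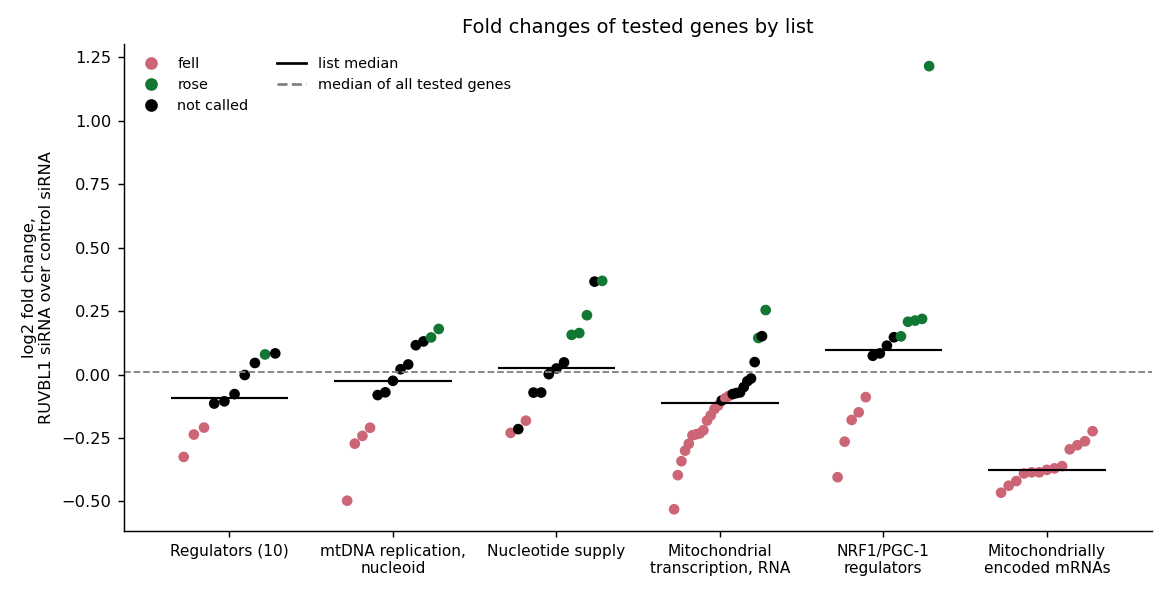
Log2 fold changes (y axis, RUVBL1 siRNA over control siRNA) of every tested gene in the 10 regulators, the 4 lists of related genes and the 13 mitochondrially encoded mRNAs, coloured by call, with each list's median as a bar and the median of all tested genes as a dashed line. The 10 regulators lie between -0.32 and 0.08, above the mitochondrially encoded mRNAs on median.

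Some of these counts may hold reads of other genes. In GENCODE 29, exons of POLG share bases with FANCI, those of TWNK with MRPL43, those of TFB1M with TIAM2 and those of SLIRP with SNW1, each on the opposite strand, over 3.61% to 7.86% of the gene's exonic bases, and the strand setting of the counts is not given in the sources used here. The annotation behind the deposited counts is not given either, so the gene models that were counted may overlap otherwise and differ in length. FANCI was itself lower after RUVBL1 siRNA, at 2388, 2203 and 2256 normalized counts beside 2708, 2646 and 2861 in control libraries, with no overlap between groups, as for POLG. Its part in the fall of POLG was not tested. SNW1 was also lower, at 2819 to 2994 beside 3077 to 3111, whereas SLIRP was higher. The POLRMT pseudogene POLRMTP1 had 103 to 111 normalized counts in control libraries and 85.5 to 89.1 after RUVBL1 siRNA, and reads of the near-identical copies cannot be told apart. The TFAM pseudogenes TFAMP1 and TFAMP2 had at most 1.34 normalized counts in any library.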

How the data were processed

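The values are estimated counts per gene in 6 libraries, 3 per group, as deposited: at least 0, with 87.8% to 90.5% exactly whole and not scaled to library size. Bowtie 0.12.2 and 2 mouse builds (mm8, mm9) are listed per the submitters' processing notes, although the deposited counts carry human Ensembl identifiers. No counter, human build, annotation or strand setting is given in the sources used here. Groups and replicate numbers came from the labels. Symbols matched 51996 of 57820 genes by stable identifier.

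Rounded estimated counts went into edgeR 4.0.16 (R 4.3.3; filterByExpr, TMM, robust quasi-likelihood test, two-sided, Benjamini-Hochberg over 16006 genes, threshold 0.05). Normalized counts are counts per effective library size times the mean size of 26348516. SEs are the fold change over the square root of F; the 95% intervals are for single genes. Counts were also simulated with the mean levels and library sizes of these data, and 15934 genes were tested. Of 50 genes changed 1.25-fold 31 were recovered, of 50 changed 1.5-fold 44 were, and 12 of 182 calls were false. The simulation had the same spread for all genes, no replicate effect and far fewer changed genes than were called here. Its rates need not hold for these libraries.

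No 2 files were identical, and the mean chi-square per gene between replicates was 1.71 to 3.93, above counting noise. Libraries with the same number had correlated deviations (0.939, 0.819 and 0.823), so a replicate block was an alternative. The labels do not say that these libraries were paired. Replicates 2 and 3 correlated across numbers about as much (0.807 and 0.817). These values thus set replicate 1 apart and do not show that replicates 2 and 3 were paired by number. Without the genes at 0 in replicate 1, the same-number correlations were 0.423, 0.192 and 0.220, and those across replicates 2 and 3 were 0.137 and 0.176. Alternatives were DESeq2 1.42.0, limma-voom (limma 3.58.1), other scalings and filters, leaving out each library, and replicates 2 and 3 alone. The 10 genes and the lists were chosen with earlier results of these data known. Genes named were the 10, RUVBL1, the 4 called genes of smallest p on each of the 4 lists, and POLG2, SSBP1, TEFM, GABPA, PPRC1 and PPARGC1A; overlapping genes and pseudogenes were added after their values were seen. 1 gene that this rule names is not reported here.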

Additional observations from a re-analysis of the deposited data

How the results depend on the processing

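POLG, POLRMT and LRPPRC kept their direction and their call under all 15 alternatives, leave-one-out fits and the replicate block included. The count of the 10 genes that rose was 3 under total-count scaling and 0 with no low-count filter, where SLIRP was not called and TFB2M passed among the falls (log2 -0.12, edgeR adjusted p = 0.0439). It ran from 0 to 1 when libraries were left out in turn. Under total-count scaling, 5 replication genes rose, 7 nucleotide supply genes rose and 1 fell, 4 transcription and RNA genes rose, and 2 NRF1 and PGC-1 partners fell. Leaving out libraries in turn, the transcription and RNA genes that rose numbered 1 to 2 and the NRF1 and PGC-1 partners that rose 3 to 5. The block changed no call of the 10 genes, with adjusted p of 0.00764 for SLIRP and 0.0681 for TFB2M. TFAM changed sign with DESeq2 (0.0024), DESeq2 size factors (0.0037), at least 50 counts in 3 libraries (0.011) and total-count scaling (0.097), and ran from -0.023 to 0.0094 without single libraries. TFB1M changed sign under total-count scaling (0.022) and in replicates 2 and 3 alone (0.012) and ran from -0.15 to 0.0030 without single libraries, and POLG2 was at 0.018 under total-count scaling. The log2 ratio of TFB1M to TFB2M ran from -0.065 to 0.13 without single libraries. Except where the alternative's own scaling or smaller sample shows it, the cause was not tested. The depth limits TFB1M, TWNK, NRF1 and PPARGC1B most, with 173 to 531 counts per library.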
